A study of Mus musculus with 9 samples.

Results

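Antigen presentation was followed in mouse gastrocnemius, the large calf muscle, through 10 genes, 4 of the MHC class II system (H2-Aa, H2-Ab1, H2-Eb1 and Cd74) and 6 of the MHC class I system (H2-K1, H2-D1, B2m, Tap1, Tap2 and Tapbp). They were picked by name from 15593 gene symbols, and 10 of 10 were found and tested. Polyadenylated RNA came from 3 groups with 3 libraries each. The first was mdx mice given GTx-026 under the skin at 10 mg/kg, the second mdx mice given vehicle, and the third wildtype mice given vehicle. The mdx mouse carries a mutation of Dmd, the dystrophin gene, in every cell and serves as the mouse model of Duchenne dystrophy. By the study's title GTx-026 belongs to the androgen receptor agonists. All 9 libraries, mdx included, have C57BL/6 as their strain label, and no age is stated. The labels do not say which animal a library came from. P-values thus reflect the spread among libraries, which may be technical, and a library's number is only a name.

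MHC class II molecules are pairs of an alpha and a beta chain that show peptides from swallowed proteins to CD4+ T cells. Under resting conditions they are made mainly by dendritic cells, macrophages and B cells, and their genes depend on the coactivator CIITA. MHC class I molecules are a heavy chain bound to beta-2-microglobulin, and almost every nucleated cell carries them. They show peptides cut by the proteasome in the cytosol, which the TAP transporter carries into the endoplasmic reticulum. Interferon gamma raises both systems, and type I interferons raise class I. Muscle fibres carry little class I at rest, and dystrophic muscle is known for infiltrating leukocytes, mainly macrophages.

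Of the 10 genes 8 lie on chromosome 17, in or beside the MHC, at these positions of GRCm38.p6 (RefSeq gene bounds). The class I genes at the left are Tapbp at 33919478 to 33929290 and H2-K1 at 33996012 to 34000619. Tap1 follows at 34187556 to 34197225 and Tap2 at 34204479 to 34216321. The class II genes come next, with H2-Ab1 at 34263227 to 34269418, H2-Aa at 34282744 to 34287823 and H2-Eb1 at 34305867 to 34316674. H2-D1 lies apart from them at 35263094 to 35267497, and B2m is on chromosome 2 at 122147687 to 122153082.

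RefSeq promoter windows of GRCm38.p6 were searched for 7 of the 10 genes, each from 250 bases before the start site to 50 bases after it. Cd74, H2-Ab1 and Tap2 were not among them. For 6 of the 7 genes (2 of class II and 4 of class I) a window is printed so that the sequences of both systems can be compared. Whether these sequences bear on the levels across libraries was not tested. H2-K1 had another window shifted by a few bases, with the same matches. Capitals mark, on either strand, the CCAAT core (ATTGG), the core of interferon regulatory factor sites (GAANNGAAA), a core of interferon response elements (GAAANNGAA) and a core of NF-kB sites (GGGATTCCC). The longer Y box (CTGATTGG), an element of class II promoters, overlaps the CCAAT core, so only the 5 bases of the core are in capitals there.
H2-Aa (chr17:34287774-34288073, minus strand): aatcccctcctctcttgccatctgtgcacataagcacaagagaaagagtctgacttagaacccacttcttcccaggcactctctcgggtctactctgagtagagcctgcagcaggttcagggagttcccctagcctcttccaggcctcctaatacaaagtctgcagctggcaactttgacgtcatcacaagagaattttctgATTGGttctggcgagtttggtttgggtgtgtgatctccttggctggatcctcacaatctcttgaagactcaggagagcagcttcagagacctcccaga
H2-Eb1 (chr17:34305617-34305916, plus strand): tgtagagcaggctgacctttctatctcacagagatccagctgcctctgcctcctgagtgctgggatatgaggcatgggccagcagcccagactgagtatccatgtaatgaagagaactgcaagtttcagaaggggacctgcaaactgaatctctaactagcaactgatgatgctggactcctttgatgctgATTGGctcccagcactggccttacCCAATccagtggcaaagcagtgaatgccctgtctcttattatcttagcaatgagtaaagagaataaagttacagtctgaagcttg
H2-K1 (chr17:34000298-34000597, minus strand): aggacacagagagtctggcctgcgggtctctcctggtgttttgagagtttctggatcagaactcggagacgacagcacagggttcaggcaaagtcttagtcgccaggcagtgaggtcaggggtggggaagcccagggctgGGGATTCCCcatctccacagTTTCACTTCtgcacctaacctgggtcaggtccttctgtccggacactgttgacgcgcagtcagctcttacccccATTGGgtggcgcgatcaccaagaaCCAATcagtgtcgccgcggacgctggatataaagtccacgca
H2-D1 (chr17:35262844-35263143, plus strand): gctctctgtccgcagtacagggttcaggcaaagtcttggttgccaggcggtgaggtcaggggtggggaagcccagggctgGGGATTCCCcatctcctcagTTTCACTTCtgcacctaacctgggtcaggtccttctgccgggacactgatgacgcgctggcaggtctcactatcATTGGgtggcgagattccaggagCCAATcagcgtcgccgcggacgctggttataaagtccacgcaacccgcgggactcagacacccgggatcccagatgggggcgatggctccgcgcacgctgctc
B2m (chr2:122147437-122147736, plus strand): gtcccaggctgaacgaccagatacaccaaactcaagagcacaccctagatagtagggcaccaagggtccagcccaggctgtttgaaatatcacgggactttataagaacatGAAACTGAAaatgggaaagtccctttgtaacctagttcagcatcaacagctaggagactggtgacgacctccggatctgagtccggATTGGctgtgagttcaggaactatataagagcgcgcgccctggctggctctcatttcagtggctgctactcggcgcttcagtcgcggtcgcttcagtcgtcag
Tap1 (chr17:34187306-34187605, plus strand): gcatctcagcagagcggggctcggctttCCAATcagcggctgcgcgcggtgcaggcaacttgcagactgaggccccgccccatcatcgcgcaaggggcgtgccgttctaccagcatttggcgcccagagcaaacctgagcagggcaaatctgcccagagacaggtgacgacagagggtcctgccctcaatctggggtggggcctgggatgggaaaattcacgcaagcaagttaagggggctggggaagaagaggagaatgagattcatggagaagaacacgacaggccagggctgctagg

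The CCAAT core was present in 7 of 7 windows searched and in 37.4% of all 32851 windows. The Y box was found in 5 of 7, namely H2-Aa, H2-Eb1, H2-K1, H2-D1 and Tap1, and in 4.10% of all windows. It began at position -51 from the start site in H2-Aa and at -62 in H2-Eb1. In the class I genes it was on the other strand, as CCAATCAG, at 9 in H2-K1 (after the start site), -53 in H2-D1 and -222 in Tap1. Positions in H2-K1 are those of the printed window. In its other window the Y box began at -6, before the start site. H2-K1 and H2-D1 are paralogs, so their matches are not independent. The NF-kB core was in H2-K1 and H2-D1, at -110 and -170, and in 0.353% of all windows. In both genes the interferon regulatory factor core followed it, as TTTCACTTC at -90 and -150. B2m held an interferon response element core, GAAACTGAA, at -139. GAANNGAAA was in 7.52% of all windows and GAAANNGAA in 8.56%. These matches describe the letters of the windows, and no binding was measured.

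The estimated reads listed per library ran from 25.1 to 38.0 M. Values are in CPM (a gene's rescaled reads per M, or mega, reads listed in the same library), and a call means an adjusted p under 0.05 in limma with Benjamini-Hochberg adjustment over all 15372 tested genes. Dmd had 17.5, 14.1 and 17.9 CPM in the mdx GTx-026 libraries 1 to 3 and 11.6, 21.8 and 21.5 CPM in the mdx vehicle libraries, against 41.2, 60.4 and 51.3 CPM in the wildtype vehicle libraries. It was lower in all 6 mdx libraries than in all 3 wildtype libraries, with adjusted p = 0.0178 for mdx GTx-026 and 0.0468 for mdx vehicle against wildtype vehicle. No overlap with wildtype vehicle, in either direction, was found for 20.9% of tested genes in mdx GTx-026 and 16.4% in mdx vehicle. The muscle enzyme gene Ckm had 19012 to 40441 CPM in all 9 libraries. Gene by gene, limma called 53 genes between mdx vehicle and wildtype vehicle (29 higher, 24 lower), 2 between mdx GTx-026 and mdx vehicle, and 240 between mdx GTx-026 and wildtype vehicle (163 higher, 77 lower). With the authors' own scaling the splits were 30 higher and 12 lower for mdx vehicle and 193 higher and 47 lower for mdx GTx-026 over wildtype vehicle, where the median log2 fold change of all genes was 0.15 and 0.09.

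Some libraries stood apart in genes that bear on antigen presentation. Mdx vehicle library 1 had a summed level of 842 CPM over the 7 pan-leukocyte markers tested of 10, against 14.2 to 262 CPM in the other 8 libraries. Wildtype vehicle library 2 had a summed level of 249 CPM over the 5 immunoproteasome genes, which cut peptides for class I, against 64.7 to 181 CPM in the other 8. Wildtype vehicle library 3 had the lowest leukocyte sum, 14.2 CPM.

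The class II chains H2-Aa, H2-Ab1 and H2-Eb1 and the invariant chain Cd74 were spread over a 16.2- to 24.6-fold range across the 9 libraries. None differed between groups by more than the spread within them, although their group means were about 1 log2 unit higher in both mdx groups than in wildtype muscle. H2-Aa, the alpha chain of I-A, had 115, 189 and 87.6 CPM in the mdx GTx-026 libraries 1 to 3, 359.7, 50.1 and 128 CPM in the mdx vehicle libraries and 142, 91.4 and 14.8 CPM in the wildtype vehicle libraries. Mdx vehicle library 1 was the highest, wildtype vehicle library 3 the lowest, and all 3 groups overlapped. H2-Ab1, the beta chain of I-A, had 89.9, 144 and 69.2 CPM in mdx GTx-026, 187, 45.0 and 109 CPM in mdx vehicle and 108, 79.2 and 11.5 CPM in wildtype vehicle. Its highest and lowest libraries were those of H2-Aa, and again the groups overlapped.

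H2-Eb1, the beta chain of I-E, had 79.3, 108 and 49.5 CPM in mdx GTx-026, 198, 34.7 and 78.9 CPM in mdx vehicle and 75.5, 57.6 and 12.2 CPM in wildtype vehicle. Its alpha chain partner is the pseudogene H2-Ea-ps in C57BL/6 mice and was not analysed here. Cd74, on chromosome 18 at 60803849 to 60812652, guards the class II groove until it reaches the endosome. It had 195, 338 and 148 CPM in mdx GTx-026, 695, 85.2 and 218 CPM in mdx vehicle and 285, 185 and 28.3 CPM in wildtype vehicle. For all 4 class II genes the ends of the order were alike, with mdx vehicle library 1 first, mdx GTx-026 library 2 second, mdx vehicle library 2 eighth and wildtype vehicle library 3 ninth.

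The class I heavy chains, B2m and the peptide loading genes shared the lower end of that order and differed in part at the upper end. Mdx vehicle library 1 was first for 3 of these genes and wildtype vehicle library 2 for the other 3. Each of these libraries was second where the other was first. H2-K1 had 150.4, 247 and 145 CPM in mdx GTx-026, 370.2, 88.0 and 188 CPM in mdx vehicle and 361, 569.7 and 79.6 CPM in wildtype vehicle. Here wildtype vehicle library 2 was the highest, while wildtype vehicle library 3 was again the lowest, and the groups overlapped. H2-D1 had 166, 223 and 154 CPM in mdx GTx-026, 469, 90.8 and 223 CPM in mdx vehicle and 275, 369 and 76.4 CPM in wildtype vehicle. Mdx vehicle library 1 led here, with wildtype vehicle library 2 second. B2m, the shared light chain, had 99.8, 140.5 and 117 CPM in mdx GTx-026, 336, 67.5 and 102 CPM in mdx vehicle and 204, 429 and 61.9 CPM in wildtype vehicle. Its highest value was in wildtype vehicle library 2, with mdx vehicle library 1 next.

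Tap1, the subunit of the peptide transporter with the widest range of the 10 genes, had 13.02, 17.2 and 8.22 CPM in mdx GTx-026, 65.9, 5.48 and 11.1 CPM in mdx vehicle and 24.8, 113 and 3.96 CPM in wildtype vehicle. The highest library had 28.5 times the lowest, and both were wildtype vehicle libraries. Tap2, the other subunit, had 17.0, 20.2 and 17.2 CPM in mdx GTx-026, 38.7, 11.8 and 19.2 CPM in mdx vehicle and 26.6, 37.6 and 9.05 CPM in wildtype vehicle. Tapbp encodes tapasin, which holds class I at the transporter, and had 49.2, 54.5 and 42.6 CPM in mdx GTx-026, 81.1, 31.0 and 46.7 CPM in mdx vehicle and 49.8, 72.4 and 29.9 CPM in wildtype vehicle. For Tap2 and Tapbp mdx vehicle library 1 was first and wildtype vehicle library 2 second, and Tapbp had the narrowest range of the 10 genes, 2.71-fold.

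**Figure D1:**
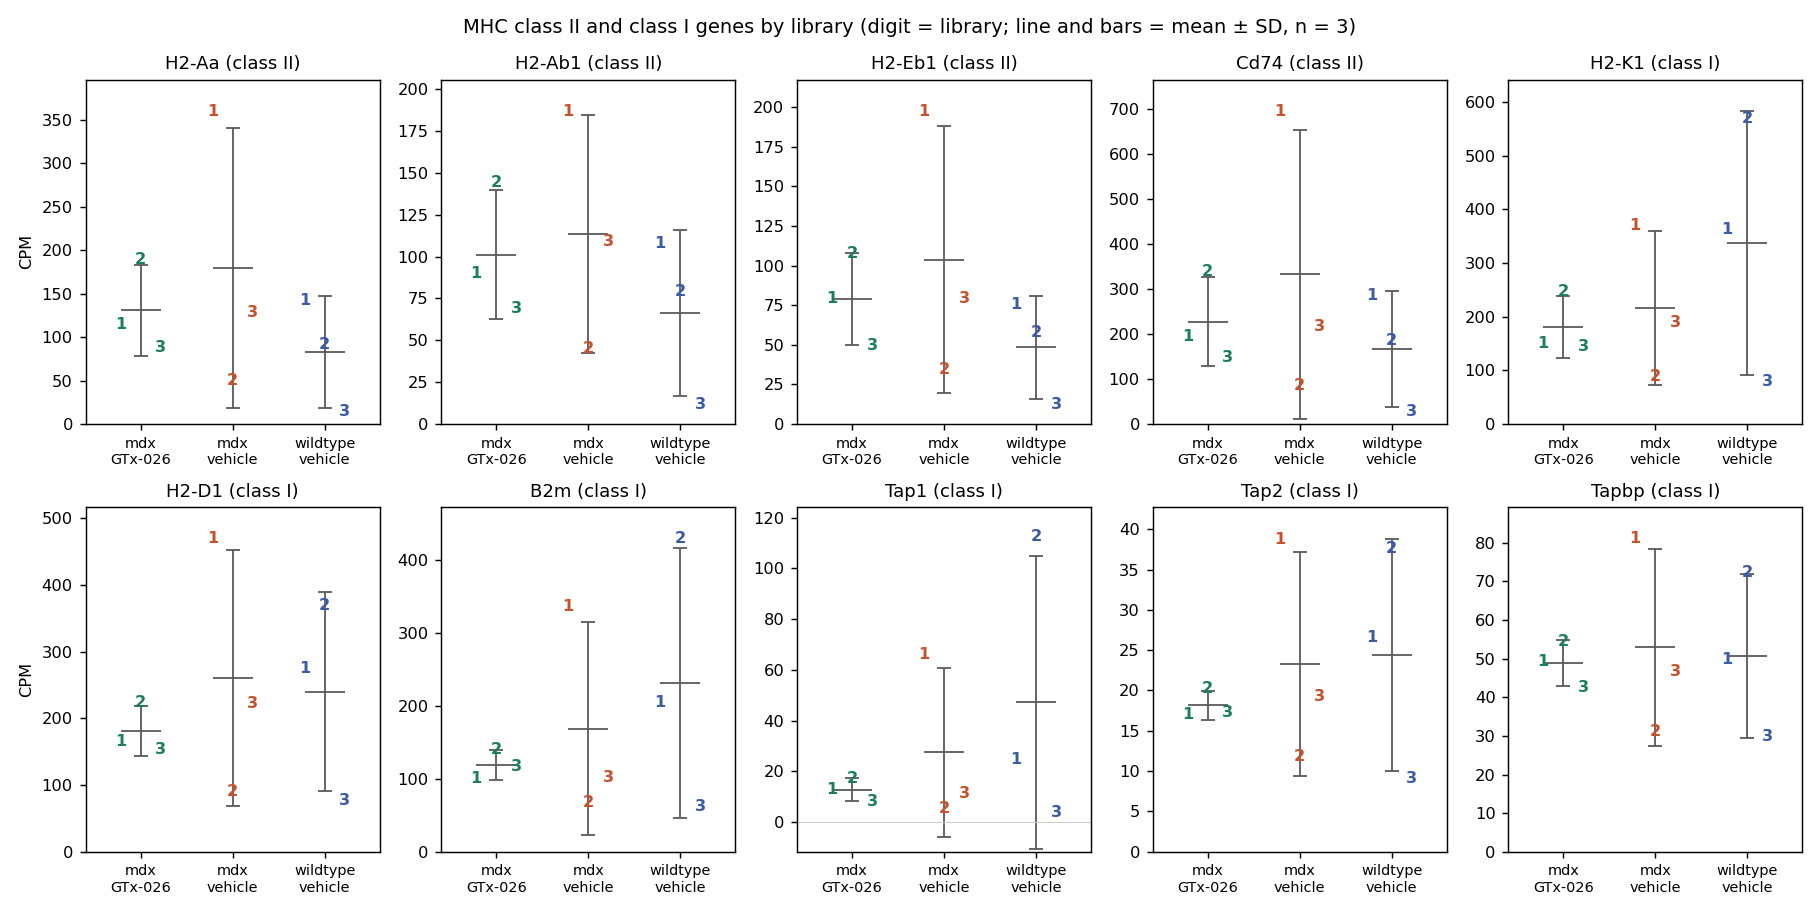
CPM (y axis, linear) of the 4 class II and 6 class I genes in the 9 libraries by group (x axis); digits are libraries, the horizontal line is the group mean and the bars are SD (n = 3), which reach below 0 for Tap1. Class II genes peaked in mdx vehicle library 1, H2-K1, B2m and Tap1 peaked in wildtype vehicle library 2, and wildtype vehicle library 3 was the lowest for all 10.

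Reads of some members cannot be assigned with certainty. Of the 50-base words of H2-K1 transcripts, 9.63% also occurred in transcripts of other genes, with the largest share in H2-Q10 (5.18%), and 12.8% of the words of H2-D1 were shared, with the largest share in H2-Q1 (5.87%). Between the pair, 4.08% of H2-K1 words were found in H2-D1 and 5.44% of H2-D1 words in H2-K1. Tapbp came next, with 2.87% of its words in other genes. The sum of H2-K1 was taken over 15 records of the table. Tap1 overlaps Psmb9 on the opposite strand, and Tap2 and Tapbp also overlap annotated genes on the opposite strand. The sources used here do not give the use of strand in counting, so reads of such pairs may be mixed. Tapbp also overlaps Zbtb22, and Cd74 overlaps Mir5107, on the same strand, where strand cannot separate reads.

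Mdx vehicle against wildtype vehicle sets dystrophic beside healthy muscle. No member was called, 0 of 10, where 0.345% of all tested genes were, and 0 of 10 had an unadjusted p under 0.05, where 12.7% of tested genes had one. In none of the 10 did the groups separate without overlap, as 16.4% of tested genes did. The class II genes were all higher on average, with log2 fold changes of 1.02 for Cd74 to 1.17 for H2-Aa and a median of 1.06, beside a median of 0.01 over all tested genes. H2-Aa averaged 179 ± 161 CPM in mdx vehicle and 82.7 ± 64.0 CPM in wildtype vehicle (SD, n = 3 each). Its log2 fold change of 1.17 had an SE of 0.85 and an interval of -0.74 to 3.08, with adjusted p = 0.588 in limma. Without wildtype vehicle library 3, the class II fold changes were 0.03 to 0.31, and without mdx vehicle library 1 they were 0.24 to 0.57.

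The class I genes gave log2 fold changes of -0.49 for Tap1 to 0.10 for H2-D1 in the same comparison, 2 above and 4 below 0, with a median of -0.21. B2m averaged 168 ± 146 CPM in mdx vehicle and 232 ± 185 CPM in wildtype vehicle (SD, n = 3 each), a log2 fold change of -0.41 (SE 0.70, adjusted p = 0.824). The direction of the class I genes rested on single libraries, since all 6 were above 0 without wildtype vehicle library 2 (0.11 to 0.62) and all 6 were below 0 without wildtype vehicle library 3 (-1.64 to -0.29). The fold change of Tap2 was -0.02, and 0.15 with the authors' scaling, where the median of all genes was also 0.15. In bulk tissue, fewer cells of a type and less RNA per cell cannot be told apart for any of these genes.

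GTx-026 was compared with vehicle in mdx muscle to see what the drug changes. No member was called (0 of 10, against 0.013% of all tested genes), none had an unadjusted p under 0.05 (3.07% of tested genes), and none separated the groups without overlap (6.89% of tested genes). All 10 log2 fold changes were slightly below 0, from -0.14 to -0.01 for class II and from -0.39 to -0.02 for class I. H2-Ab1 averaged 101 ± 38.7 CPM in mdx GTx-026 and 114 ± 71.0 CPM in mdx vehicle (SD, n = 3 each), with a log2 fold change of -0.01 (SE 0.77, adjusted p = 1.00 in limma). The interval of that difference, -1.74 to 1.71, leaves room for changes of more than 3-fold either way. Without mdx vehicle library 1, the library high in leukocyte markers, all 10 fold changes were above 0, from 0.24 for Tap2 to 0.64 for Cd74.

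GTx-026-treated mdx muscle was also set against wildtype vehicle, with the same wildtype libraries as in the first comparison. No member was called (0 of 10, against 1.56% of all tested genes), none had an unadjusted p under 0.05 (12.6% of tested genes) and none separated the groups (20.9% of tested genes). Class II fold changes were 0.89 for Cd74 to 1.08 for H2-Aa, with adjusted p from 0.677 to 0.780, and class I fold changes were -0.87 for Tap1 to 0.03 for Tapbp. H2-Eb1 averaged 78.9 ± 29.1 CPM in mdx GTx-026 and 48.4 ± 32.6 CPM in wildtype vehicle (SD, n = 3 each), a log2 fold change of 0.97 with an SE of 0.73. Without wildtype vehicle library 3 the class II fold changes were -0.10 to 0.19 and all 6 class I fold changes were below 0 (-2.02 to -0.30). Without wildtype vehicle library 2 all 6 class I fold changes were above 0 (0.046 to 0.32). In the authors' deposited table, which is not adjusted for multiple tests, the p-values of the 29 records of the 10 genes ran from 0.274 to 0.922 over the 3 pairs of groups.

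**Figure D2:**
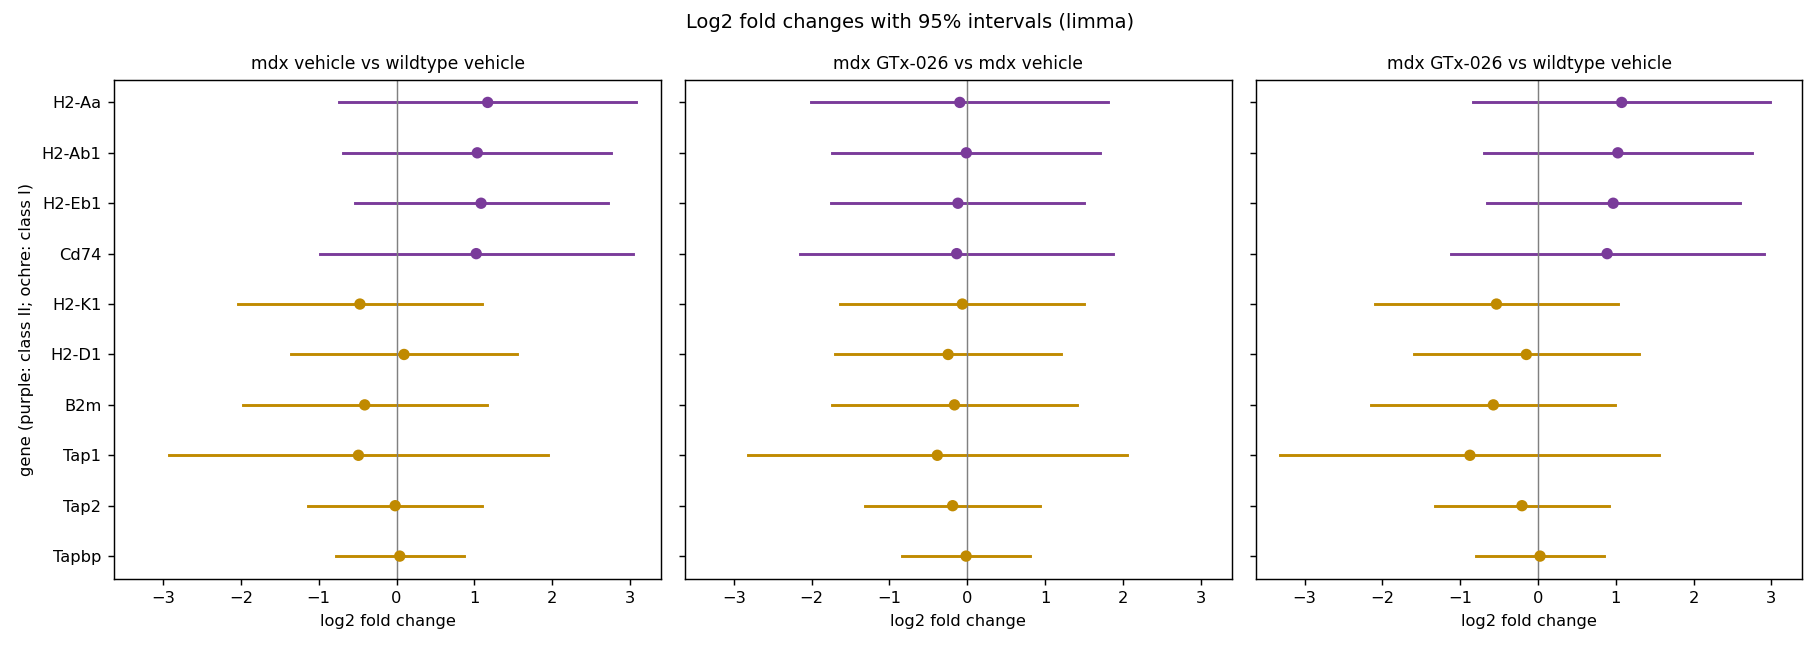
Log2 fold changes (x axis) of the 10 genes (y axis) in the 3 comparisons, with 95% intervals from limma. The class II genes sit near 1 against wildtype vehicle and near 0 for mdx GTx-026 against mdx vehicle, the class I genes sit between -0.87 and 0.10, and every interval includes 0.

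The spread between libraries of a group was large for these genes compared with other genes. The pooled within-group SD was 1.67 log2 units for Tap1, 1.38 for Cd74 and 1.31 for H2-Aa, while the median of all tested genes was 0.227. It was larger than that of 92.7% of tested genes for Tapbp, the steadiest member, and of 99.7% for Tap1. The spread was not even between groups. Within mdx GTx-026 the SDs of the 10 genes were 0.13 to 0.60, within mdx vehicle 0.68 to 1.74 and within wildtype vehicle 0.63 to 2.26, beside medians over all tested genes of 0.18, 0.24 and 0.18.

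**Figure D3:**
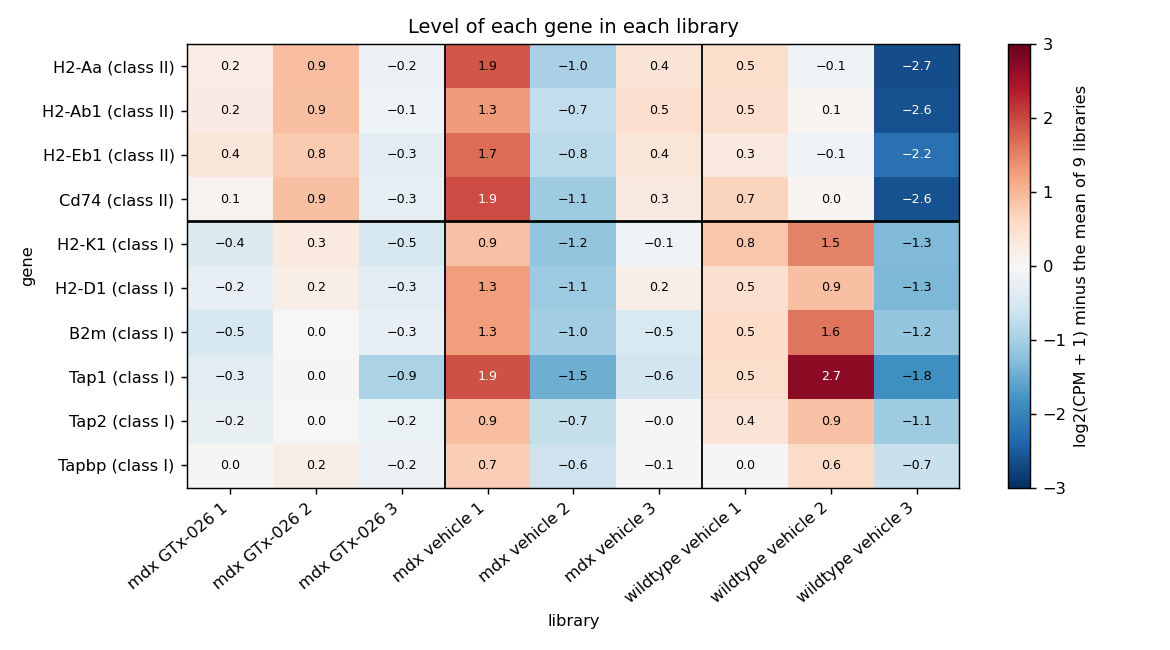
Each cell is log2(CPM + 1) of a gene (rows) in a library (columns) minus that gene's mean over the 9 libraries, red above and blue below it. The mdx vehicle library 1 column is red for both classes, the wildtype vehicle library 2 column is red for class I and near 0 for class II, and the wildtype vehicle library 3 column is blue throughout.

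Single pairs of libraries show how the 2 systems parted. Wildtype vehicle library 2 had 0.643 to 0.763 times the class II levels of wildtype vehicle library 1, but 1.34 times (H2-D1) to 4.55 times (Tap1) its class I levels. Mdx vehicle library 1 over mdx vehicle library 2 gave 4.15- to 8.16-fold for class II and 2.61- to 12.0-fold for class I, so both classes were higher there. Mdx vehicle library 2 over wildtype vehicle library 3, the lowest pair, gave 2.84- to 3.90-fold for class II and only 1.04- to 1.38-fold for class I. Over the 9 libraries, Pearson's r between members was 0.979 to 0.996 within class II, 0.911 to 0.984 within class I and 0.623 to 0.882 between the classes. Without mdx vehicle library 1 and wildtype vehicle library 2 these ranges were 0.987 to 0.998 within class II, 0.836 to 0.979 within class I and 0.746 to 0.940 between the classes, so over those 7 libraries the last 2 ranges overlapped. Members share library and depth in these correlations, which only describe these libraries.

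To set class II against class I in each library, the mean log2(CPM + 1) of the 6 class I genes was subtracted from that of the 4 class II genes. This balance is read only for its differences between libraries, since levels of different genes depend on their length. It was 1.01, 1.26 and 0.67 in mdx GTx-026 libraries 1 to 3, 1.02, 0.62 and 1.04 in mdx vehicle, and 0.52, -0.89 and -0.81 in wildtype vehicle. All 6 mdx libraries were above all 3 wildtype libraries, but the nearest pair, mdx vehicle library 2 and wildtype vehicle library 1, was only 0.10 apart. It averaged 0.98 ± 0.30 in mdx GTx-026, 0.90 ± 0.24 in mdx vehicle and -0.39 ± 0.79 in wildtype vehicle (SD, n = 3 each).

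The balance was 1.29 higher in mdx vehicle than in wildtype vehicle (2.44-fold), 1.37 higher in mdx GTx-026 than in wildtype vehicle (2.59-fold) and 0.09 higher in mdx GTx-026 than in mdx vehicle, beside a pooled within-group SD of 0.51. No test was made on this score, because its genes were chosen with earlier results known. Without mdx vehicle library 1 and wildtype vehicle library 2, a pair chosen after the data were seen, the differences from wildtype vehicle were 0.98 for mdx vehicle and 1.13 for mdx GTx-026. With the median over members in place of the mean, wildtype vehicle library 1 had 0.29, above the lowest library of mdx GTx-026 (0.14) and of mdx vehicle (0.05), so the groups overlapped. They also overlapped for mdx vehicle when H2-K1 and H2-D1, the genes with the largest shares of shared words, were left out of class I. The lowest mdx vehicle library then had 1.33, against 1.38 in the highest wildtype vehicle library.

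Each class II gene was also set against each class I gene, in 24 pairs. The log2 ratio of class II to class I had a higher mean in mdx vehicle than in wildtype vehicle for 24 of 24 pairs, and for 11 of 24 every mdx vehicle library was above every wildtype library. For mdx GTx-026 against wildtype vehicle these counts were 24 and 15, and for mdx GTx-026 against mdx vehicle 18 and 0. The pairs share genes and libraries, and the share of tested genes without overlap, 16.4%, 20.9% and 6.89% for these comparisons, applies to single genes and not to ratios.

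**Figure D4:**
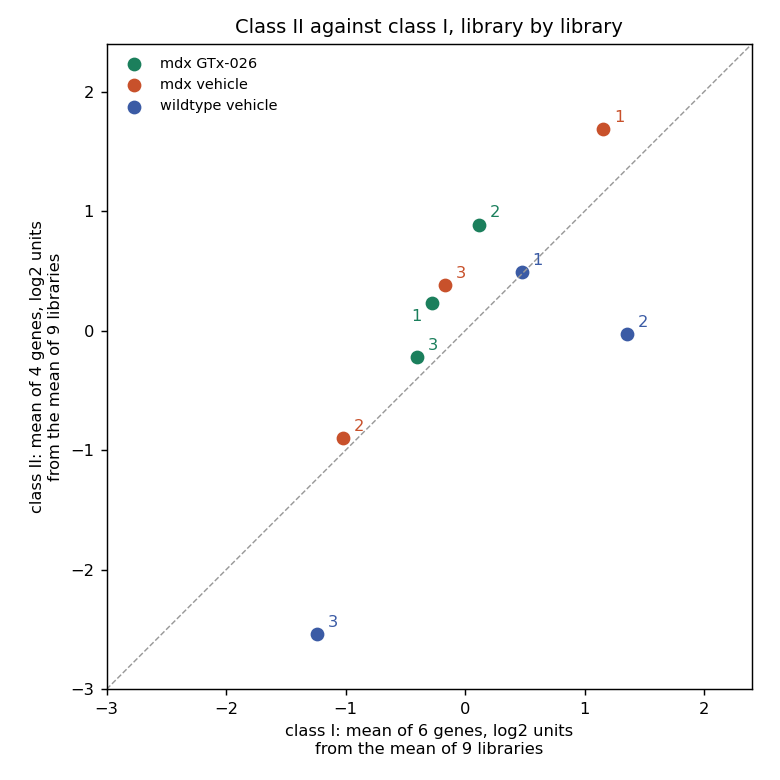
Mean of the 4 class II genes (y axis) against the mean of the 6 class I genes (x axis), both in log2 units from their mean over the 9 libraries; points are libraries, digits their numbers and the dashed line marks equal values. The 6 mdx libraries lie above the line, wildtype vehicle library 1 lies on it (0.49 and 0.47) and wildtype vehicle libraries 2 and 3 lie below it.

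Other genes of the pathways were followed through lists. Over all tested genes, 0.345% were called in mdx vehicle and 1.56% in mdx GTx-026 over wildtype vehicle, and 0.013% between the mdx groups. Of the other class II pathway, 11 of 16 genes were tested, and 1 of 11 was called in any comparison. That gene was Lgmn, a lysosomal protease that trims proteins and the invariant chain, with 82.8, 76.8 and 122 CPM in mdx GTx-026, 93.6, 67.2 and 95.2 CPM in mdx vehicle and 52.8, 37.1 and 35.1 CPM in wildtype vehicle. All 6 mdx libraries were above all 3 wildtype libraries. Over all tested genes, 16.4% had no overlap between mdx vehicle and wildtype vehicle, and 20.9% between mdx GTx-026 and wildtype vehicle. Lgmn was named because it was called, so its separation adds no support. Lgmn rose in mdx GTx-026 over wildtype vehicle, by 1.15 on the log2 scale (SE 0.23, adjusted p = 0.0446 in limma). In mdx vehicle the rise was 1.02, not past the threshold (adjusted p = 0.134 in limma). In mdx GTx-026 over mdx vehicle the log2 fold change of Lgmn was 0.12 (SE 0.23), not called. The Lgmn call was lost with the authors' scaling (adjusted p = 0.0748) and without any one of the libraries compared other than wildtype vehicle library 1, with adjusted p of 0.0847 to 0.191. The list's median log2 fold change was 0.30 for mdx vehicle and 0.09 for mdx GTx-026 over wildtype vehicle.

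Of the other class I pathway, 18 of 23 genes were tested. Of the 18, 1 was called, in mdx GTx-026 against wildtype vehicle, where 1.56% of all tested genes were. Hfe, a class I-like protein of iron control, had 11.5, 10.2 and 18.97 CPM in mdx GTx-026, 15.8, 8.89 and 25.3 CPM in mdx vehicle and 40.7, 43.9 and 42.1 CPM in wildtype vehicle. The wildtype libraries were all above the mdx libraries. Groups did not overlap for 16.4% of all tested genes in mdx vehicle and 20.9% in mdx GTx-026 against wildtype vehicle. Hfe, too, was named because it was called, so its separation adds no support. Hfe fell in mdx GTx-026 against wildtype vehicle by 1.62 on the log2 scale (SE 0.33, adjusted p = 0.0479 in limma). Its log2 fold change in mdx vehicle was -1.40 (adjusted p = 0.149 in limma). In mdx GTx-026 over mdx vehicle it was -0.21 (SE 0.33), not called. Among 12 genes that lead from interferon to MHC, 1 of 11 tested was called, beside the same 1.56%. It was Ifngr2, a chain of the interferon gamma receptor. It had 70.3, 69.9 and 56.7 CPM in mdx GTx-026, 67.9, 77.5 and 74.3 CPM in mdx vehicle and 101, 103 and 102 CPM in wildtype vehicle. Ifngr2 fell by 0.64 in mdx GTx-026 against wildtype vehicle (SE 0.13, adjusted p = 0.0426 in limma). Its log2 fold change was -0.48 in mdx vehicle (adjusted p = 0.190 in limma). In mdx GTx-026 over mdx vehicle it was -0.16 (SE 0.13), not called. Both calls were lost with the authors' scaling (adjusted p = 0.0869 for Hfe and 0.124 for Ifngr2) and without any one of the 6 libraries compared. The 11 interferon pathway genes summed to 1042 CPM in wildtype vehicle library 2 and 362 to 517 CPM elsewhere. Of them 10 of 11 had a log2 fold change below 0 in each mdx group over wildtype vehicle. The medians were -0.23 in mdx vehicle and -0.28 in mdx GTx-026.

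The regulators of the 2 systems were low and varied from library to library. Ciita, the coactivator of class II, had 2.12, 8.60 and 2.205 CPM in mdx GTx-026, 21.3, 2.64 and 3.44 CPM in mdx vehicle and 6.07, 10.5 and 1.39 CPM in wildtype vehicle. Its highest library was mdx vehicle library 1, as for the class II genes. Wildtype vehicle library 2 came next for Ciita, above wildtype vehicle library 1, while each class II gene was lower there than in wildtype vehicle library 1. The log2 fold change of Ciita over wildtype vehicle was 0.30 in mdx vehicle and -0.34 in mdx GTx-026. Nlrc5, the coactivator of class I, had 1.09, 1.51 and 0.626 CPM in mdx GTx-026, 3.46, 0.533 and 1.13 CPM in mdx vehicle and 2.31, 7.57 and 0.440 CPM in wildtype vehicle, and was highest in wildtype vehicle library 2. Neither was called in any comparison by limma.

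After wildtype vehicle library 2, the summed immunoproteasome genes were highest in mdx vehicle library 1, at 181 CPM, against 64.7 to 122 CPM in the other 7 libraries. None of the 5 was called in any comparison, where 0.013% to 1.56% of all tested genes were. Psmb9 had 4.11, 5.90 and 3.02 CPM in mdx GTx-026, 18.4, 2.10 and 4.31 CPM in mdx vehicle and 9.52, 32.4 and 1.47 CPM in wildtype vehicle. Psmb10 was highest in the same library, at 52.9 CPM, and had 9.38 to 22.2 CPM in the others. Of the costimulation list 3 of 6 genes were tested and none was called, beside the same shares of all tested genes. Cd274, the ligand that restrains T cells, had 169 CPM in wildtype vehicle library 2 and 2.72 to 13.7 CPM elsewhere, while Icosl, a ligand that costimulates them, had 51.6 CPM in mdx vehicle library 1 and 1.87 to 15.8 CPM elsewhere.

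The genes most like each class across the 9 libraries were taken from 10333 genes by Pearson's r with the class mean. For class II they were H2-DMb1 (0.967), Casp9 (0.955), Pld4 (0.951), Unc93b1 (0.950) and H2-DMa (0.950). H2-DMa and H2-DMb1 encode the chains of H2-DM, which helps load peptides onto class II. Without mdx vehicle library 1 and wildtype vehicle library 3, the farthest from the median, these values were 0.820 to 0.895. For class I the closest were Psmb8 (0.993), Psmb9 (0.977), Irf8 (0.972), Uba7 (0.969) and Samhd1 (0.968), and without mdx vehicle library 1 and wildtype vehicle library 2 they had 0.929 to 0.993. Psmb8 and Psmb9 encode immunoproteasome subunits, and Irf8 is a transcription factor of myeloid cells. Psmb9 overlaps Tap1, which is part of the class I mean, on the opposite strand, so reads of the pair may be mixed.

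Markers of the cells that carry class II moved with these values in part. The summed pan-leukocyte markers were 71.3, 229 and 92.8 CPM in mdx GTx-026, 842, 35.7 and 91.1 CPM in mdx vehicle and 262, 47.4 and 14.2 CPM in wildtype vehicle. Its 3 highest libraries, mdx vehicle 1, wildtype vehicle 1 and mdx GTx-026 2, held the 3 highest values of H2-Aa and Cd74. For H2-Ab1 and H2-Eb1, wildtype vehicle library 1 was not among the 3 highest and had the 4th and the 5th highest value. Cd52, a leukocyte surface protein, had 112 CPM in mdx vehicle library 1, 37.6 CPM in wildtype vehicle library 1, 26.02 CPM in mdx GTx-026 library 2 and 0.990 to 5.79 CPM in the other 6. Of 9 T cell markers, Cd8a alone was tested, with 38.0 CPM in mdx vehicle library 1 and 3.03 to 13.1 CPM elsewhere. None of the 8 B cell markers, and neither Ptprc nor Itgax, was analysed here, and the 3 of 8 dendritic cell markers tested had sums of 10.6 to 14.3 CPM in all 9 libraries. The part of these cells in the class II values was not tested.

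Macrophage markers, 9 of 10 tested, had another pattern. Their sums were 313, 305 and 453 CPM in mdx GTx-026, 428, 116 and 392 CPM in mdx vehicle and 112, 137 and 49.6 CPM in wildtype vehicle. The mdx GTx-026 libraries were all above the wildtype libraries, while mdx vehicle library 2 lay among them. All 9 had a log2 fold change above 0 in both mdx groups over wildtype vehicle, with medians of 1.42 in mdx vehicle and 1.68 in mdx GTx-026, and 0 of 9 were called in mdx vehicle (0.345% of all tested genes) and 1 of 9 in mdx GTx-026 (1.56%). An unadjusted p under 0.05 was found for 7 of 9 in mdx vehicle and 8 of 9 in mdx GTx-026 over wildtype vehicle, where 12.7% and 12.6% of all tested genes had one. The call, named after its values were seen, was the complement gene C1qc, with a log2 fold change of 1.92 (adjusted p = 0.0461 in limma). Whether the C1qc call holds with other scalings or with a library left out was not tested. Csf1r, a growth factor receptor of macrophages, had 27.0, 22.8 and 32.7 CPM in mdx GTx-026, 25.0, 10.4 and 26.9 CPM in mdx vehicle and 9.28, 10.0 and 4.98 CPM in wildtype vehicle. C1qa had 15.3 to 48.8 CPM in the 6 mdx libraries and 4.69 to 15.8 CPM in the 3 wildtype libraries. Their part in the class balance was not tested.

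**Figure D5:**
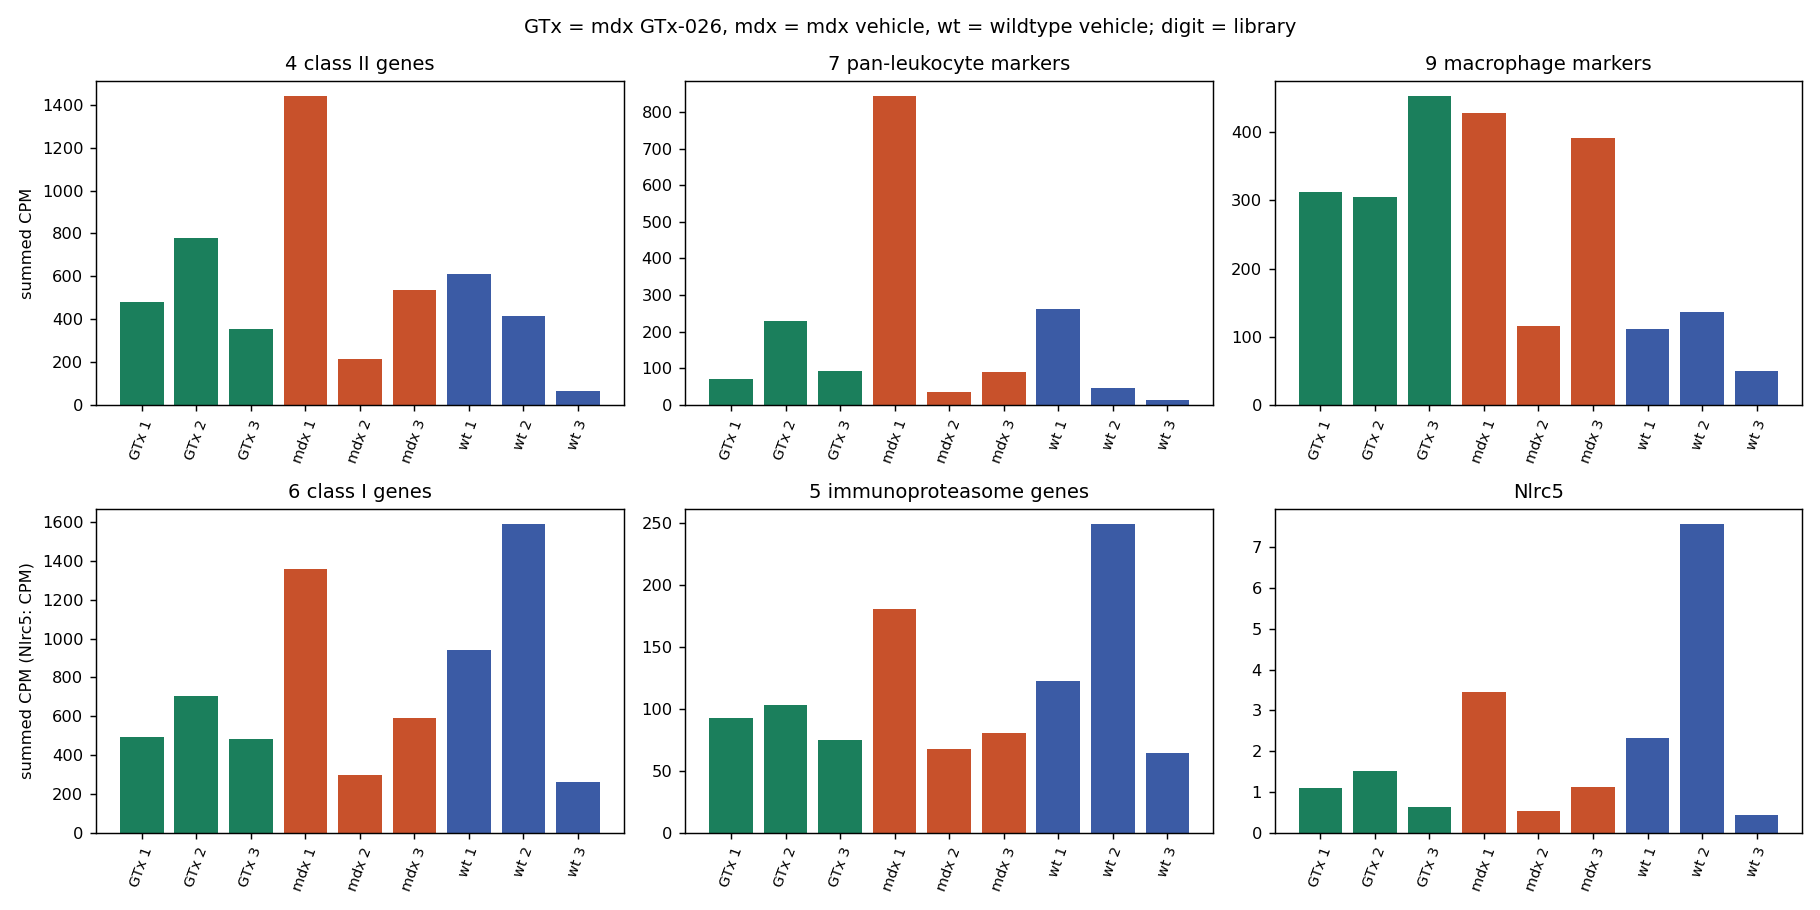
Summed CPM by library (bars, linear y axis from 0) of the 4 class II genes, 7 pan-leukocyte markers, 9 macrophage markers, 6 class I genes and 5 immunoproteasome genes, and CPM of Nlrc5. Class II and pan-leukocyte sums peaked in mdx vehicle library 1 (1439 and 842 CPM), class I, immunoproteasome and Nlrc5 levels in wildtype vehicle library 2 (1591, 249 and 7.57 CPM), and the macrophage sum in mdx GTx-026 library 3 (453 CPM).

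Other cell types of the muscle were followed as well. Endothelial markers, whose cells also carry class I, had sums of 160 to 277 CPM in mdx GTx-026, 155 to 238 CPM in mdx vehicle and 185 to 311 CPM in wildtype vehicle. In any comparison 0 of 8 were called, where 0.013% to 1.56% of all tested genes were. All 8 had a log2 fold change below 0 in both mdx groups over wildtype vehicle. Their medians were -0.36 in mdx vehicle and -0.26 in mdx GTx-026. An unadjusted p under 0.05 in limma was found for 1 of 8 and 2 of 8, against 12.7% and 12.6% of all tested genes. Pecam1 had 36.2 to 68.0 CPM in mdx GTx-026, 28.9 to 60.0 CPM in mdx vehicle and 37.3 to 63.6 CPM in wildtype vehicle. Fibroblast marker sums were 610 to 1003 CPM in mdx GTx-026, 413 to 895 CPM in mdx vehicle and 286 to 495 CPM in wildtype vehicle. In mdx GTx-026 over wildtype vehicle 1 of 6 was called, where 1.56% of all tested genes were. The call was Pdgfra, a growth factor receptor, also named after its values were seen, with a log2 fold change of 1.099 (adjusted p = 0.0317 in limma). Whether the Pdgfra call holds with other scalings or with a library left out was not tested. An unadjusted p under 0.05 in limma was found for 5 of 6 fibroblast markers in that comparison, against 12.6% of all tested genes. In mdx vehicle over wildtype vehicle it was 2 of 6, against 12.7%. The 8 muscle fibre markers gave 0 calls, beside the same shares of all tested genes.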

How the data were processed

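The members and the gene lists were chosen with earlier results of these data known. Per the labels' protocols, poly-A RNA was selected, barcoded and run on an Ion Torrent Proton. Per the submitters' processing notes, which give no role or order, the build was GRCm38.p3 and the tools were DESeq2 1.6.3, HTSeq 0.6.1p1, SAMtools 0.1.19, Bowtie2 2.2.4 and TopHat2 2.0.13. The sources used here do not give the annotation or the strand setting. The authors' deposited signal is a scaled read number for each of 46442 sequence records, in 9 columns that name a group and a number. Per the file headers, further columns are the authors' group means, the ratio of those means and a p-value for each pair of groups, with wildtype over mdx and vehicle over GTx-026. Values of a library below 10000 lay within 0.1 read of whole multiples of 1 step, from which the listed reads were estimated. The values were not accepted as counts, so no count model was run.

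Records above 0 in all 9 libraries were summed by symbol, which gave 15372 tested genes. Of these 9006 had more than 1 record, so a read listed under several records may enter a sum repeatedly. Left out were 4 records with no symbol (0.000646% of the deposited total) and 221 other symbols. Library scaling was by an unweighted trimmed mean of log ratios (factors of 0.868 to 1.28). Tests used limma 3.58.1 in R 4.3.3 on log2(CPM + 1), which understates the change of low genes. All 9 libraries of the 3 groups were in a single model with a trended prior variance, 6 residual and 3.59 prior degrees of freedom, two-sided p-values and Benjamini-Hochberg adjustment within a comparison. The 95% intervals are of that model and not adjusted. The code was tested on simulated data. Alternatives were other scalings, pseudocounts of 0.5 and 5 CPM, other sums of records, a filter on low values, a model of 2 groups, a prior without trend, each library left out and, for the balance, other member sets. The named genes were the members and Dmd, every called gene of the 5 pathway lists or else the 2 at 2 CPM or more with the largest change between mdx vehicle and wildtype vehicle, Ciita, Nlrc5, H2-Ea-ps, some markers, and the 5 genes most like each class. Another gene named by that rule is not reported here.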

Additional observations from a re-analysis of the deposited data

How the results depend on the processing

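No member was called in any comparison under any of 20 alternatives, with adjusted p from 0.260 to 0.995 for mdx vehicle against wildtype vehicle, 0.841 to 1.00 for mdx GTx-026 against mdx vehicle and 0.423 to 0.999 for mdx GTx-026 against wildtype vehicle (limma). With 3 libraries a group and the spread seen here, 27 of the 30 intervals of the members reach more than 1 log2 unit to either side of the estimate. No paired analysis was possible because the columns carry a group and a number that pairs nothing. The cause of the changes with a setting was not tested.

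The genes called between mdx vehicle and wildtype vehicle, 53, were 336 with all records of a symbol summed, 6 with a model of the 2 compared groups and 7 to 93 with a library left out. Between mdx GTx-026 and mdx vehicle, 2 calls became 4 with the authors' scaling or total reads only, 1 with a pseudocount of 5 CPM or a model of 2 groups, 95 with all records summed and 0 to 2 with a library left out. Between mdx GTx-026 and wildtype vehicle, 240 calls became 510 with all records summed, 409 with a model of 2 groups and 50 to 371 with a library left out. That setting tested 15593 symbols, with records listed at 0 in some libraries included. Dmd was called in mdx vehicle under 9 of 20 alternatives and in mdx GTx-026 under 15 of 20, always lower than in wildtype vehicle.

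The class II fold changes of mdx vehicle over wildtype vehicle were above 0 under all 20 alternatives. Tap2 turned to 0.15 with the authors' scaling, 0.16 with total reads only and 0.037 with the highest record only, and Tapbp in mdx GTx-026 over mdx vehicle to 0.012 with the highest record only. With single libraries left out, the log2 fold changes of mdx vehicle over wildtype vehicle ran from -1.30 to 0.11 for H2-K1, -0.58 to 0.70 for H2-D1, -1.15 to 0.23 for B2m, -1.64 to 0.62 for Tap1, -0.58 to 0.39 for Tap2 and -0.31 to 0.36 for Tapbp. For mdx GTx-026 over mdx vehicle they ran from -0.79 to 0.62 for H2-Aa, -0.56 to 0.45 for H2-Ab1, -0.73 to 0.51 for H2-Eb1, -0.86 to 0.64 for Cd74, -0.59 to 0.44 for H2-K1, -0.85 to 0.32 for H2-D1, -0.65 to 0.50 for B2m, -1.10 to 0.58 for Tap1, -0.57 to 0.24 for Tap2 and -0.34 to 0.34 for Tapbp. The highest value of these came without mdx vehicle library 1 and the lowest without mdx vehicle library 2 for all 10 genes. For mdx GTx-026 over wildtype vehicle they ran from -0.10 to 1.54 for Cd74, -1.36 to 0.046 for H2-K1, -0.83 to 0.30 for H2-D1, -1.32 to 0.066 for B2m, -2.02 to 0.24 for Tap1, -0.77 to 0.20 for Tap2 and -0.30 to 0.32 for Tapbp.

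Leaving out mdx vehicle library 1 and wildtype vehicle library 2 together was chosen after seeing the data. It gave 25, 1 and 122 called genes in mdx vehicle over wildtype vehicle, mdx GTx-026 over mdx vehicle and mdx GTx-026 over wildtype vehicle. In the first, H2-D1 turned to -0.028 and Tapbp to -0.018. In the second, the fold changes turned to 0.62 for H2-Aa, 0.46 for H2-Ab1, 0.51 for H2-Eb1, 0.65 for Cd74, 0.44 for H2-K1, 0.33 for H2-D1, 0.50 for B2m, 0.59 for Tap1, 0.25 for Tap2 and 0.34 for Tapbp. In the last, H2-K1 turned to 0.046, H2-D1 to 0.30, B2m to 0.067, Tap1 to 0.23 and Tap2 to 0.20. The class balance moved by less than the pooled spread between libraries under all alternatives run, with single libraries left out from 1.04 to 1.74 for mdx vehicle over wildtype vehicle, -0.06 to 0.24 for mdx GTx-026 over mdx vehicle and 1.13 to 1.83 for mdx GTx-026 over wildtype vehicle. That is a wide bound, since the pooled spread of 0.51 includes the SD of 0.79 in wildtype vehicle. The separation of mdx from wildtype libraries was lost with the median over members. For mdx vehicle it was also lost without H2-K1 and H2-D1. With a pseudocount of 5 CPM it was narrow, with a lowest mdx vehicle value of 0.486 and a highest wildtype vehicle value of 0.465. With the highest record only these values were 1.365 and 1.330.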
